A study of Mus musculus with 32 samples.

Results

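The 9 genes described here encode the core of the Hedgehog signalling pathway: Shh, Ptch1, Boc, Gas1, Hhip, Smo, Gli1, Gli2 and Gli3. They were taken by symbol from every deposited table, and all 9 were present, of 55573 genes in all. The series holds 32 RNA-seq libraries from mouse cells of strain 129S5/SvEvBrd, either kept for 6 days as neural cultures in a medium the labels name RHA-B, or grown as embryonic stem cells (ESC) with LIF and serum on gelatin. Every group carried a tagged Smarce1: the genotypes were Smarce1-MD and Smarce1-MD(R42A), written MD and R42A for short. The protein of Smarce1, BAF57, belongs to SWI/SNF chromatin remodelling complexes, and MD is read here, from general knowledge and not from the labels, as a mitotic degron that removes the tagged protein as cells leave mitosis, with R42A as its inactive form. No group had an untagged Smarce1.

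The 4 groups were neural MD (clone labels 09 and 30), neural R42A (clone labels A04 and A10), ESC MD (clones 09, 30, 45 and 47) and ESC R42A (clones A04, A10, A01 and A02). Neural groups had 2 libraries per clone label and ESC groups 3 per clone. ESC of clones 09, 30, A04 and A10 formed the first library series and ESC of 45, 47, A01 and A02 the second, a division taken from the library numbers, which run on within each. The neural libraries form 1 further run of numbers, so the stage of the cells and the library run cannot be told apart. The clone was the replicate, its libraries were summed, and nothing in the labels says whether libraries of a clone came from separate cultures. In the neural cultures libraries of different clone labels lay about as far apart as libraries of one label: the median absolute log2 difference was 0.101 between and 0.0985 within labels in MD, and 0.103 between and 0.118 within labels in R42A.

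Total counts per library ran from 44426448 to 62803925 in neural MD, from 51736118 to 62236199 in neural R42A, from 38699952 to 87242402 in ESC MD and from 43278459 to 96424443 in ESC R42A. The cells matched their labelled stage: 13 pluripotency markers summed to between 342 and 349 CPM in neural MD clones and between 262 and 272 CPM in neural R42A clones, against 5389 to 6669 CPM in ESC MD clones and 6448 to 7864 CPM in ESC R42A clones. Levels are in CPM, counts scaled to a common library size after TMM normalization, and a fold change is MD over R42A, or neural cells over ESC, on the log2 scale with its standard error (SE). Each test was edgeR's quasi-likelihood F-test over all genes that passed a filter on low counts, and a gene was called changed at a Benjamini-Hochberg adjusted p under 0.05. Smarce1 RNA averaged 294 CPM (SD 6.65) over the 2 neural MD labels and 231 CPM (SD 2.23) over the 2 neural R42A labels, and 117 CPM (SD 6.00) over the 4 MD and 109 CPM (SD 14.7) over the 4 R42A ESC clones. The log2 fold change of Smarce1 was 0.34 ± 0.09 in neural cells (edgeR adjusted p = 0.0293) and 0.09 ± 0.09 in ESC (edgeR adjusted p = 0.438). Smarce1 lies on chromosome 11, whose tested genes had a median of 0.48 in neural cells and 0.45 in ESC. With each chromosome scaled on its own the Smarce1 value turned to -0.10 and -0.37, and the neural call was lost without any 1 neural clone label. Because the tag works on the protein, this RNA cannot show whether a library is labelled rightly.

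Hedgehog proteins such as Sonic hedgehog (SHH, encoded by Shh) are secreted signals. PTCH1, their receptor, keeps the membrane protein SMO inactive until a ligand binds, and BOC and GAS1 are co-receptors that help the ligand bind, whereas HHIP binds the ligand and holds it away from the receptor. Active SMO, working at the primary cilium, changes the processing of the GLI transcription factors: GLI2 is the main activator, GLI3 acts largely as a repressor, and GLI1 is an activator. Gli1, Ptch1 and Hhip are themselves targets of the pathway, so their RNA is widely read as a measure of signalling, and in the embryo SHH from the notochord and floor plate sets the ventral cell types of the neural tube.

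Ptch1 and Hhip were the members whose RNA was called higher in MD at both stages, and Smo the member called lower at both, so the stretch before the start site of these 3 genes is shown. The sequences are RefSeq's for the build GRCm38.p6 and hold the 250 bases before the annotated start: chr13:63565736-63565985 on the minus strand for Ptch1, chr8:80058009-80058258 on the minus strand for Hhip and chr6:29735247-29735496 on the plus strand for Smo. Capitals mark matches on either strand to GGGCGG, the core of a GC box, or to ACCACCC, the core of the sequence that GLI proteins bind.
Ptch1: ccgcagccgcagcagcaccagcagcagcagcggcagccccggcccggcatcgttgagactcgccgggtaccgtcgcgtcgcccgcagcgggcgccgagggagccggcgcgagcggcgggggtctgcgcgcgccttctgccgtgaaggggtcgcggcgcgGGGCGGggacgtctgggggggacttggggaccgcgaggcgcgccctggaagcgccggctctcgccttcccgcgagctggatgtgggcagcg
Hhip: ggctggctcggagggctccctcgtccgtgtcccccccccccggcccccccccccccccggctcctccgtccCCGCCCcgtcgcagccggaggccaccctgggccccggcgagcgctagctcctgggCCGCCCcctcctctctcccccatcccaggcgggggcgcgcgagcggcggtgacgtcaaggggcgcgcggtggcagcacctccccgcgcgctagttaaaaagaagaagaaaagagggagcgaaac
Smo: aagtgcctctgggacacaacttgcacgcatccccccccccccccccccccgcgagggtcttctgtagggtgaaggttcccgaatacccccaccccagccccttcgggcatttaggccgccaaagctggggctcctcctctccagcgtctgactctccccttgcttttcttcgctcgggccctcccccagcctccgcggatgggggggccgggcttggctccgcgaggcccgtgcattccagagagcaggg

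The 9-base GLI sequence GACCACCCA, searched on both strands over 250 bases before to 50 after the start, was in none of the 6 members that the RefSeq table holds (Ptch1, Hhip, Smo, Gli2, Gli3 and Gas1), and in 83 of all 32851 promoters, or 0.253%. Its looser form GACCNCCCA was in 0 of the 6 and in 0.977% of all promoters. ACCACCC, which lies within GACCACCCA, was in Gli2 alone of the 6 and in 4.61% of all promoters. GGGCGG was in 5 of the 6, all but Smo, and in 35.7% of all promoters. These are letters within a short window and not binding sites, and the Ptch1 window belongs to a start 7863 bases inside the longest annotated gene body. The 250 bases of Hhip hold 2 GGGCGG matches, both on the opposite strand, and those of Ptch1 hold 1.

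In the build mm10, the genes lie as follows, by the GENCODE M21 annotation. Shh (ENSMUSG00000002633.4) is at chr5:28456815-28467256 on the minus strand, Ptch1 (ENSMUSG00000021466.12) at chr13:63508328-63573598 on the minus strand, and Boc (ENSMUSG00000022687.12) at chr16:44485049-44558897 on the minus strand. Gas1 (ENSMUSG00000052957.8) is at chr13:60174405-60177365 on the minus strand, Hhip (ENSMUSG00000064325.4) at chr8:79965851-80058006 on the minus strand, and Smo (ENSMUSG00000001761.7) at chr6:29735503-29761365 on the plus strand. Gli1 (ENSMUSG00000025407.7) is at chr10:127329882-127341974 on the minus strand, Gli2 (ENSMUSG00000048402.14) at chr1:118834132-119053619 on the minus strand, and Gli3 (ENSMUSG00000021318.15) at chr13:15463235-15730026 on the plus strand. All 9 are protein coding, and their values are sums over the whole gene. Each overlaps at least 1 other annotated gene, among them Arhgap9 on the strand opposite Gli1 and Gm26894 opposite Shh, and whether counting used strand is not given in the sources used here.

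The first question is where the pathway genes stood in MD against R42A neural cultures. Of the 9 members, all of which passed the filter, 2 were called higher in MD (Hhip and Ptch1) and 2 lower (Smo and Gli2). Over all 23844 genes tested 33.7% were called, 17.4% higher and 16.3% lower, so 4 of 9 is near the background share. The median log2 fold change of the 9 was 0.28, against -0.00200 for all genes tested.

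Shh, the ligand, was read at 5.85, 5.78, 6.79 and 5.65 CPM in the 4 neural MD libraries, against 5.67, 5.004, 4.45 and 4.81 CPM in the 4 neural R42A libraries. The lowest MD library lay just under the highest R42A library. Clone sums of Shh did not overlap, at 5.84 and 6.34 CPM in MD and 5.34 and 4.65 CPM in R42A. Its estimate of 0.28 ± 0.30 (log2, edgeR adjusted p = 0.507) did not pass in the fit shared with ESC.

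Ptch1, the receptor and a pathway target, had 183, 188, 215 and 180.3 CPM in neural MD libraries, against 151, 129, 135 and 135 CPM in neural R42A libraries. Every MD library lay above every R42A library. Libraries of the neural groups did not overlap for 7 of 9 members and for 51.1% of all 23844 genes tested, so such a separation was common here. The difference was 0.49 ± 0.06 on the log2 scale (edgeR adjusted p = 0.00104), and it passed under all 16 alternatives tried, between 0.44 and 0.54.

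Hhip, the ligand-binding inhibitor and another target, had 24.8, 25.5, 31.3 and 20.2 CPM in neural MD libraries, against 10.5, 10.3, 9.70 and 8.05 CPM in neural R42A libraries. The groups did not overlap, and the 2 libraries of label 30 differed from each other more than the 2 of label 09. Clone labels averaged 26.0 ± 1.07 CPM for MD and 9.73 ± 1.03 CPM for R42A (SD, n = 2 each). Hhip was higher by 1.42 ± 0.24 on the log2 scale, a fold of 2.67 (edgeR adjusted p = 0.00406), and it passed under all 16 alternatives, between 1.31 and 1.73.

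Boc and Gas1, the co-receptors, stood at similar levels per length in neural cells, and neither passed. Boc had 150.3, 152, 159 and 159 CPM in neural MD libraries, against 94.9, 106, 101 and 103 CPM in neural R42A libraries. The MD libraries all lay above the R42A libraries, and the log2 fold change of 0.61 ± 0.20 missed the threshold (edgeR adjusted p = 0.0556). It passed under 8 of 16 alternatives, among them the fit of neural clone sums alone (log2 0.62, edgeR adjusted p = 8.9e-17) and the shared fit without R42A ESC clone A04 or A10 (log2 0.62 in both, edgeR adjusted p = 1.38e-06 and 1.50e-06). The fit of neural clone sums alone called 8 of 9 members and 67.3% of the 20285 genes it tested, a share far above that of the shared fit. Its calls thus include members beyond Boc and Gli1 that the shared fit did not call. Gas1 had 93.4, 94.0, 101 and 91.6 CPM in neural MD libraries, against 81.8, 90.0, 78.9 and 83.6 CPM in neural R42A libraries, with no overlap and a log2 fold change of 0.19 ± 0.13 (edgeR adjusted p = 0.325).

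Smo, the transducer, moved the other way. It had 138, 134, 132 and 140.2 CPM in neural MD libraries, against 195, 202, 189.7 and 211 CPM in neural R42A libraries. Every MD library lay below every R42A library, and Smo fell by 0.56 on the log2 scale, with an SE of 0.05 (edgeR adjusted p = 0.000305). It passed under all 16 alternatives.

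Among the GLI factors Gli2 alone was called. Gli2 had 60.2, 60.6, 64.2 and 65.3 CPM in neural MD libraries, against 79.5, 81.9, 76.6 and 84.4 CPM in neural R42A libraries. Gli2 fell by 0.37 on the log2 scale, with an SE of 0.09 (edgeR adjusted p = 0.0201), and the groups did not overlap. Without any 1 of the 4 neural clone sums the call was lost, at adjusted p values of 0.0727 without 30, 0.0937 without A10, 0.101 without A04 and 0.130 without 09 (edgeR), while the log2 fold change stayed between -0.41 and -0.32.

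Gli1 had 41.2, 43.8, 47.002 and 43.8 CPM in neural MD libraries, against 38.1, 34.7, 32.3 and 35.4 CPM in neural R42A libraries. The groups did not overlap, but the log2 fold change of 0.33 ± 0.12 did not pass (edgeR adjusted p = 0.0763). It passed in the fit of neural clone sums alone (log2 0.34, edgeR adjusted p = 1.8e-07), with no filter on low counts (0.0399), and without the R42A ESC clone A04 (0.000106) or A10 (0.000107). Gli3 had 356, 342, 376 and 352 CPM in neural MD libraries, against 365, 369, 367 and 358 CPM in neural R42A libraries, and these overlapped. Its log2 fold change was -0.03 ± 0.12 (edgeR adjusted p = 0.862).

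**Figure D1:**
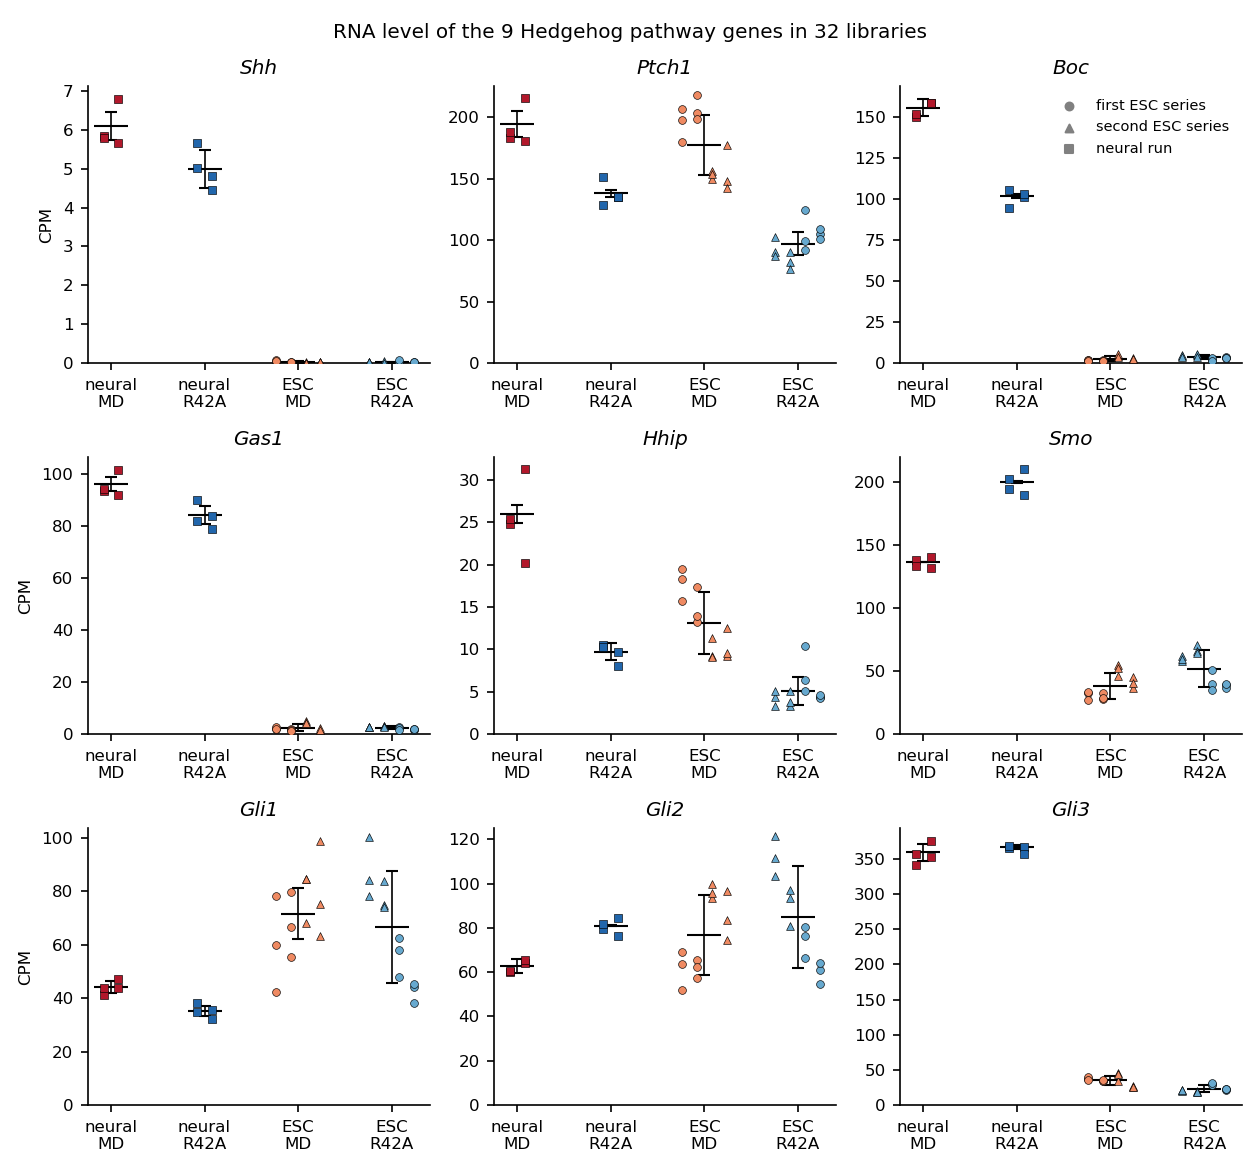
CPM (y axis, linear, from 0) of each of the 9 genes in the 32 libraries, by group (x axis: neural MD, neural R42A, ESC MD, ESC R42A). Points are libraries, set side by side by clone, with the marker giving the library series; the horizontal line and bar are the mean and SD over clone sums. In neural cells Ptch1, Hhip, Boc, Gas1 and Gli1 lie higher and Smo and Gli2 lower in all MD libraries than in all R42A libraries, while Shh and Gli3 overlap, and libraries were as separate for 51.1% of all genes tested.

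Markers of other cell types differed between the neural groups as well, where 33.7% of all genes tested were called. All 16 neuron markers were called higher in MD, and they summed to between 3080 and 3147 CPM in MD clone labels, against 1083 to 1106 CPM in R42A. Neural progenitor markers were called higher for 1 and lower for 3 of 14, with sums of 3473 to 3518 CPM in MD and 3674 to 3697 CPM in R42A. Of 17 endoderm markers 7 were called lower in MD, with sums of 513 to 552 CPM in MD and 1158 to 1325 CPM in R42A. Of 13 mesenchyme markers 7 were called higher and 3 lower (212 to 221 CPM in MD, 350.1 to 350.3 CPM in R42A). The 3 were Tagln (-4.82), Acta2 (-4.40) and Thy1 (-0.98). The list's median log2 fold change was 0.63, so its lower sum in MD does not stand for most of its markers. Of 11 axial midline markers 4 were called higher and none lower (164 to 169 CPM in MD, 105 to 109 CPM in R42A). That list holds Shh (log2 0.28) and Foxa2 (log2 -0.68), and neither was called. Of the 4 called axial midline markers 2 lie on chromosome 11. Of 9 neural crest markers 4 were called higher (Sox10, Tfap2a, Tfap2b and Ngfr, by 1.31 to 1.88) and 1 lower, with sums of 136 to 146 CPM in MD and 75.5 to 77.0 CPM in R42A. Of 13 pluripotency markers 5 were called higher and 3 lower, and the sums given above were higher in MD. Against first-series ESC, 12 of the 13 were called lower and 1 higher in neural MD (median log2 fold change -6.58). In neural R42A 12 were called lower and 0 higher (median -6.49). How much each marker added to the neural sums was not tested, so the higher sum in MD is not read as more pluripotent cells. Of 12 mesoderm markers 11 were tested, with 1 called higher and 2 lower (41.1 to 42.04 CPM in MD, 39.2 to 40.3 CPM in R42A). No marker of the 8 lists was at 0 in either neural group, apart from the mesoderm marker Msgn1, at 0 in both. The part of such cells in the differences of the members was not tested, and in bulk RNA fewer cells of a type and less RNA per cell cannot be told apart.

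The next comparison asks the same of ESC, over 4 MD and 4 R42A clones with the library series as a covariate. Shh did not pass the filter on low counts, with a total of 16 counts over the 12 MD libraries and 17 over the 12 R42A libraries. Of the other 8 members 3 were called higher in MD (Hhip, Ptch1 and Gli3) and 1 lower (Smo). Over all 21567 genes tested 36.5% were called, 17.1% higher and 19.4% lower. The median log2 fold change of the 8 was 0.08, against -0.03 for all genes tested. The ratios of Ptch1, Hhip and Smo had the same sign as in neural cells, though the 2 comparisons share the clones 09, 30, A04 and A10 as lines.

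Ptch1 ran from 142 to 218 CPM (median 179) in the 12 ESC MD libraries, and from 76.6 to 125 CPM (median 95.6) in the 12 ESC R42A libraries. No library of one genotype overlapped the other, as for 6.3% of all 21567 genes tested. Clone sums averaged 177 ± 24.4 CPM for MD and 96.9 ± 9.29 CPM for R42A (SD, n = 4 each), and the log2 fold change was 0.86 ± 0.06, a fold of 1.82 (edgeR adjusted p = 4.18e-05). It was 0.97 ± 0.07 in the first library series alone (edgeR adjusted p = 0.0224) and 0.82 ± 0.09 in the second alone (edgeR adjusted p = 0.000894).

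Hhip ran from 9.08 to 19.5 CPM (median 12.9) in ESC MD libraries, and from 3.25 to 10.4 CPM (median 4.50) in ESC R42A libraries. Clone sums did not overlap, at 17.6, 14.5, 9.87 and 10.5 CPM in MD clones 09, 30, 45 and 47, against 7.60, 4.44, 4.25 and 4.13 CPM in R42A clones A04, A10, A01 and A02. One library of clone A04 stood at 10.4 CPM, above several MD libraries of the second series. Hhip was higher by 1.35 ± 0.16 on the log2 scale, a fold of 2.55 (edgeR adjusted p = 0.000394), with 1.46 ± 0.28 in the first series alone (edgeR adjusted p = 0.04995) and 1.29 ± 0.16 in the second alone (edgeR adjusted p = 0.00161).

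The gene Hhip is on chromosome 8, and most tested genes of that chromosome had a lower level in MD. The median log2 fold change of the chromosome was -0.28 over 1207 tested genes in neural cells and -0.45 over 1085 in ESC. Only 44 genes of the chromosome (3.65%) had a higher log2 fold change than Hhip in neural cells, and 17 (1.57%) in ESC. With each chromosome scaled on its own, Hhip stood at 1.73 in neural cells (edgeR adjusted p = 0.000608) and at 1.83 in ESC (edgeR adjusted p = 5.04e-05). Chromosome 11, with medians of 0.48 in neural cells and 0.45 in ESC, holds no member.

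**Figure D2:**
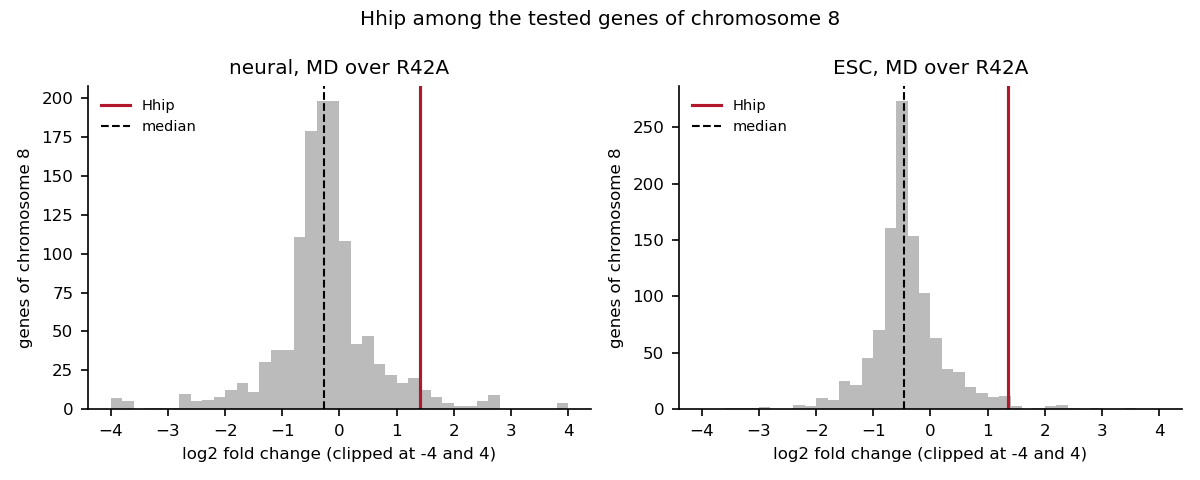
Number of tested chromosome 8 genes (y axis) by log2 fold change of MD over R42A (x axis, clipped at -4 and 4), in neural cells at the left and ESC at the right. The dashed line is the chromosome median, -0.28 in neural cells and -0.45 in ESC, and the red line is Hhip, at 1.42 and 1.35, in the upper tail of both.

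Smo ran from 27.4 to 54.4 CPM (median 34.9) in ESC MD libraries, and from 34.8 to 70.7 CPM (median 54.1) in ESC R42A libraries. These ranges overlapped, and both genotypes were higher in the second series: MD medians were 45.4 CPM in the second and 30.5 CPM in the first, and R42A medians 62.9 CPM in the second and 39.5 CPM in the first. Within the first series, and again within the second, every MD library lay below every R42A library. The share of all genes so separated within a series was not counted. Smo fell by 0.43 on the log2 scale, with an SE of 0.08 (edgeR adjusted p = 0.00448). The call was lost without the series covariate (log2 -0.45, edgeR adjusted p = 0.270) and in the first series alone (log2 -0.34, edgeR adjusted p = 0.0677), and held in the second alone (log2 -0.46, edgeR adjusted p = 0.0325).

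Gli3 ran from 25.5 to 45.1 CPM (median 35.2) in ESC MD libraries, and from 18.0 to 31.7 CPM (median 21.3) in ESC R42A libraries. MD clone 47, at 26.5 CPM, lay below R42A clone A04, at 30.04 CPM. The estimate was 0.60 ± 0.15 on the log2 scale (edgeR adjusted p = 0.0135). The call was lost without R42A clone A02 (log2 0.54, edgeR adjusted p = 0.0537), without the series covariate (0.0585), in the first series alone (log2 0.49, edgeR adjusted p = 0.119) and in the second alone (log2 0.76, edgeR adjusted p = 0.0530).

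The other GLI factors and the co-receptors were not called in ESC. Gli1 ran from 42.4 to 98.8 CPM (median 71.7) in ESC MD libraries, and from 38.1 to 100.3 CPM (median 68.3) in ESC R42A libraries, and its log2 fold change was 0.14 ± 0.12 (edgeR adjusted p = 0.376). In the second series alone it was -0.06 and in the first alone 0.40, neither of which passed. Gli2 ran from 52.0 to 99.7 CPM (median 72.0) in MD and from 54.9 to 122 CPM (median 80.6) in R42A, and its log2 fold change was -0.14 ± 0.09 (edgeR adjusted p = 0.241). Both genes stood higher in the second series: R42A medians of Gli1 were 81.1 CPM in the second series and 46.6 CPM in the first, and those of Gli2 were 100.4 CPM in the second and 65.4 CPM in the first.

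Boc was low in ESC, with 1.17 to 5.79 CPM (median 2.23) in MD libraries and 1.21 to 5.32 CPM (median 3.44) in R42A libraries. Its log2 fold change was -0.46 ± 0.24 (edgeR adjusted p = 0.171). Without MD clone 45, which at 4.94 CPM was the highest of the MD clones, it was -0.72 and passed (edgeR adjusted p = 0.0294). Gas1 was as low, with 1.17 to 4.81 CPM (median 1.99) in MD libraries and 1.47 to 3.10 CPM (median 2.63) in R42A libraries, and a log2 fold change of 0.02 ± 0.27 (edgeR adjusted p = 0.960).

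Whether the difference between MD and R42A differed between the library series was tested by their interaction. No member was called, and 0 of 21567 genes (0% called) were. In edgeR 644 of these genes had an unadjusted p under 0.05, fewer than that threshold gives by chance over so many genes. DESeq2 called 6 genes. The largest member estimates, second minus first series, were -0.49 ± 0.18 for Gli1 and 0.45 ± 0.50 for Boc, with edgeR adjusted p values of 0.931 and 0.932.

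Marker lists moved in ESC too, where 36.5% of all genes tested were called. Of 13 pluripotency markers 8 were called lower and 1 higher in MD, and of 14 neural progenitor markers, of which 13 were tested, 6 were called higher and 1 lower (532 to 939 CPM in MD clones, 454 to 730.2 CPM in R42A clones). Of 13 mesenchyme markers 10 were tested, with 6 called higher and 1 lower, and their sums were 66.1 to 116 CPM in MD clones, against 15.5 to 39.8 CPM in R42A clones, where Lum was at 0. Of 17 endoderm markers 14 were tested, with 4 called higher (Cldn6, Epcam, Krt8 and Krt18, by 0.90 to 1.83) and 1 lower (Foxa1, -1.51). Their sums were 301 to 403 CPM in MD clones, against 150 to 302 CPM in R42A clones. The endoderm factors Sox17 (0.05), Gata4 (-0.09), Gata6 (0.13) and Foxa2 (0.81) were not called. Of 9 axial midline markers tested 4 were called higher and 1 lower (6.69 to 15.7 CPM in MD clones, 5.65 to 11.4 CPM in R42A clones). Neuron, neural crest and mesoderm markers were called in both directions alike, with 3 of 14 tested, 2 of 8 and 2 of 10 each way, and their sums overlapped between the genotypes, with the crest marker Tfap2b at 0 in R42A. The part of such cells in the differences of Ptch1, Hhip, Gli3 and Smo was not tested.

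**Figure D3:**
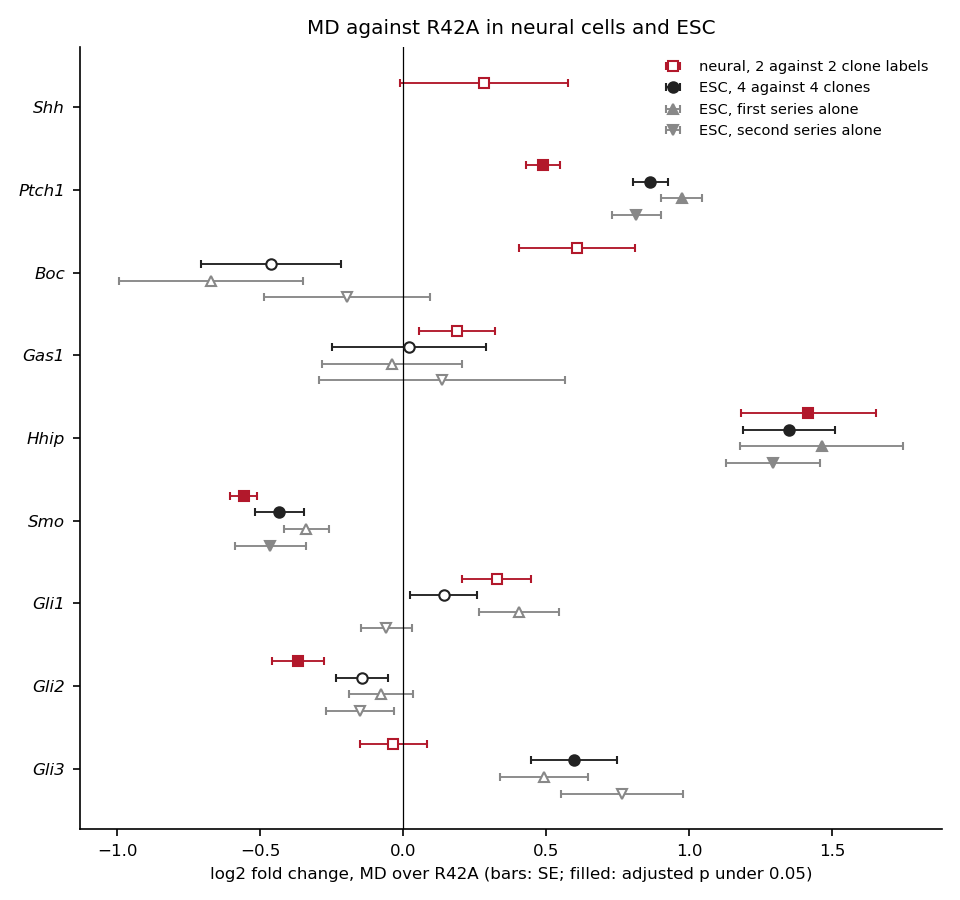
Log2 fold change of MD over R42A (x axis) for each member (rows), with SE bars, in neural cells (red squares), in ESC (black circles) and in each ESC library series alone (grey triangles). Filled symbols have an adjusted p under 0.05. Hhip and Ptch1 lie right of 0 and Smo left of 0 in every fit; Gli1 in ESC lies right of 0 in the first series and left of it in the second; Shh was not tested in ESC.

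A further test asked which members differed between MD and R42A by another amount in neural cells than in ESC of the same 4 clone labels. It called 2 of 9 members, Ptch1 lower and Boc higher in neural cells than in ESC, where 22.9% of 23844 genes were called, 11.9% higher and 11.1% lower. The Ptch1 difference was 0.46 smaller on the log2 scale in neural cells (-0.46 ± 0.08, edgeR adjusted p = 0.00825) and passed under all 16 alternatives, between -0.51 and -0.41. In both stages Ptch1 was higher in MD: the neural value was 0.49, and the first ESC series alone gave 0.97. The Boc estimate was 1.301 ± 0.31 (edgeR adjusted p = 0.0245), with MD higher in neural cells and R42A higher, uncalled, in ESC. It was lost with no filter on low counts (adjusted p = 0.111 in edgeR) and without MD ESC clone 09 (0.0596) or 30 (0.102), or neural A04 (0.0926), A10 (0.0914), 09 (0.0829) or 30 (0.0927).

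For the other 7 members the estimate did not pass. Hhip gave -0.03 ± 0.33 (edgeR adjusted p = 0.985), Gli1 -0.06 ± 0.17, Shh 0.13 ± 0.81 and Gas1 0.24 ± 0.20, so the SE of Hhip and Shh leaves room for sizeable differences. Gli3 gave -0.50 ± 0.17 (edgeR adjusted p = 0.0714) and Smo -0.20 ± 0.07 (edgeR adjusted p = 0.0763). Gli3 passed under 7 of 16 alternatives and Smo under 3. Without R42A ESC clone A10 the Gli3 estimate was -0.32 and passed (edgeR adjusted p = 0.00212), and without A04 it was -0.72 (2.38e-06). Gli2 gave -0.27 ± 0.13 (edgeR adjusted p = 0.180). Without R42A ESC clone A04, Gli1 and Gli2 passed as well, at -0.26 and -0.42.

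Between stages the differences were far larger. Neural cells were compared with ESC of the first series, within each genotype. The 2 comparisons contrast separate libraries, but both came from the shared fit. Their SE and p-values rest on a spread estimated over both genotypes together, so the calls in MD and R42A are not independent. In MD 6 of 9 members were called higher in neural cells and Gli1 lower, where 81.3% of 23844 genes were called (40.3% higher, 41.0% lower). In R42A 7 of 9 were called higher and Gli1 lower, where 78.3% of genes were called (37.9% higher, 40.4% lower). Since most genes were called, the sizes say more than the counts: the median log2 fold change of the members was 2.09 in MD and 2.28 in R42A, against -0.02 and -0.06 for all genes tested.

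The ligand and the co-receptors differed most. Shh was close to the detection limit in ESC, at up to 0.0655 CPM (median 0.0261) in the 6 MD libraries and up to 0.0790 CPM (median 0.0198) in the 6 R42A libraries of the first series, and 1 MD library and 2 R42A libraries had no count. Neural libraries held 5.65 to 6.79 CPM in MD and 4.45 to 5.67 CPM in R42A. The log2 fold change was 7.58 ± 0.46 in MD and 7.45 ± 0.46 in R42A (edgeR adjusted p = 3.90e-06 and 4.79e-06). Boc stood at 150.3 to 159 CPM in neural MD libraries, against 1.17 to 2.10 CPM in MD ESC (log2 6.55 ± 0.26), and at 94.9 to 106 CPM in neural R42A libraries, against 1.21 to 3.49 CPM in R42A ESC (log2 5.25 ± 0.25). Gas1 rose by 5.63 ± 0.17 in MD and 5.39 ± 0.16 in R42A on the log2 scale. None of the ranges overlapped, and each call held under all 15 alternatives. The share of all genes whose libraries did not overlap between stages was not counted, for these members or those below.

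Of the receptor pair, Ptch1 was near level between neural cells and first-series ESC in MD, and higher in neural cells in R42A. In MD it had 180.3 to 215 CPM in neural libraries, against 179.7 to 218 CPM in ESC (log2 -0.11 ± 0.06, edgeR adjusted p = 0.123), and 4 of 15 alternatives called it lower, among them the fits without R42A ESC clone A04 (-0.12, 0.0310) or A10 (-0.12, 0.0328). In R42A it had 129 to 151 CPM in neural libraries, against 92.1 to 125 CPM in ESC, with no overlap (log2 0.36 ± 0.06, edgeR adjusted p = 0.000891). In second-series ESC, left out of this comparison, Ptch1 ran from 142 to 177 CPM in MD and from 76.6 to 103 CPM in R42A. Both ranges lie below the neural libraries of the genotype, so the near level in MD holds against the first series only. Smo was higher in neural cells in both genotypes, at 132 to 140.2 CPM in MD, against 27.4 to 33.5 CPM in ESC, and at 189.7 to 211 CPM in R42A, against 34.8 to 50.7 CPM in ESC (log2 2.09 ± 0.05 and 2.28 ± 0.05). Hhip was called higher in neural cells in both, by 0.62 ± 0.23 in MD and 0.64 ± 0.24 in R42A (edgeR adjusted p = 0.0390 and 0.0373), but each call was lost under 8 of 15 alternatives. These included leaving out any 1 of the 4 neural clone sums, or the ESC clones 09 or 30, in both genotypes, and A10 in R42A, where adjusted p values without 1 clone reached 0.197 in MD and 0.154 in R42A (edgeR).

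The GLI genes parted. Gli3 was the most abundant GLI RNA in neural cells, at 342 to 376 CPM in MD, against 33.7 to 39.9 CPM in ESC, and at 358 to 369 CPM in R42A, against 21.1 to 31.7 CPM in ESC (log2 3.25 ± 0.13 and 3.76 ± 0.13). Gli1, the target gene, was lower in neural cells, at 41.2 to 47.002 CPM in MD, against 42.4 to 79.7 CPM in ESC, and at 32.3 to 38.1 CPM in R42A, against 38.1 to 62.7 CPM in ESC. It fell by 0.59 in MD and by 0.54 in R42A on the log2 scale, with an SE of 0.12 in each (edgeR adjusted p = 0.00260 and 0.00449), and libraries touched or overlapped in both. Gli2 had 60.2 to 65.3 CPM in neural MD libraries, against 52.0 to 69.3 CPM in MD ESC (log2 -0.05 ± 0.09, edgeR adjusted p = 0.635). In second-series ESC, left out of this comparison, Gli2 ran from 74.7 to 99.7 CPM in MD, above all neural MD libraries. There it ran from 80.9 to 122 CPM in R42A, against 76.6 to 84.4 CPM in neural R42A libraries. In R42A its estimate was 0.22 ± 0.09 and missed the threshold (edgeR adjusted p = 0.0567), and with the clone label as a block, which pairs the 2 stages of a line, it passed (0.23, edgeR adjusted p = 0.0464), as it did without ESC clone A04 (0.36, edgeR adjusted p = 2.06e-05).

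**Figure D4:**
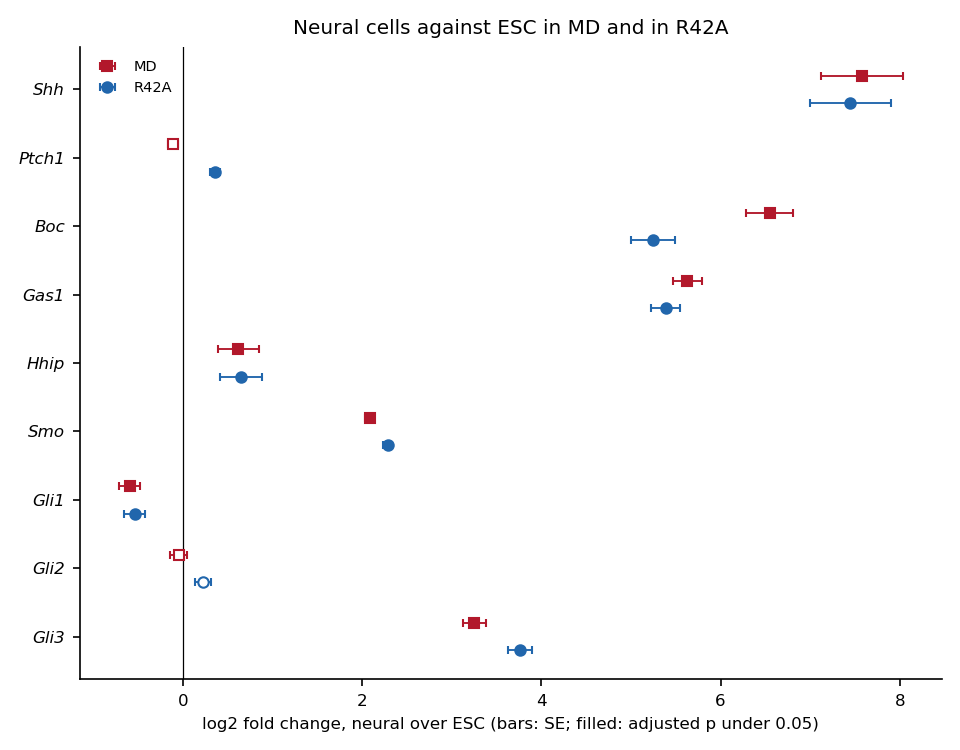
Log2 fold change of neural cells over ESC of the first series (x axis) for each member (rows), with SE bars, in MD (red squares) and R42A (blue circles). Filled symbols have an adjusted p under 0.05. Shh, Boc and Gas1 lie above the rest, at 5.25 to 7.58, Gli3 and Smo at 2.09 to 3.76, and Hhip at 0.62 and 0.64, called in both genotypes; Ptch1 and Gli2 lie closer to 0, and Gli1 lies below 0 at -0.59 and -0.54.

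Per kilobase of exon the order of the members changed with the stage. In neural MD cells Gli3 (37.5 CPM per kb), Boc (35.0) and Gas1 (32.4) led, followed by Smo (24.2), Ptch1 (13.7), Gli2 (9.15) and Gli1 (8.87), with Hhip (2.87) and Shh (2.14) last. In neural R42A cells Gli3 (38.3 CPM per kb) and Smo (35.6) led Gas1 (28.4) and Boc (22.9). In ESC Gli1 led in MD at 14.3 CPM per kb, next to Ptch1 at 12.5 and Gli2 at 11.2, and in R42A at 13.3, next to Gli2 at 12.4, Smo at 9.24 and Ptch1 at 6.83. The spread over clones of Gli1 and Gli2 (SD of 21.0 and 23.2 CPM in R42A) does not separate those neighbours, and Boc, Gas1 and Shh stayed under 1 CPM per kb in both ESC groups.

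Other ligands and release factors were counted over a list of 11 genes. For this list and those that follow, the shares over all genes tested are the background. In MD against R42A they were 17.4% higher and 16.3% lower in neural cells, and 17.1% higher and 19.4% lower in ESC. In neural cells 0 were called higher and 4 lower in MD: Dhh (-2.68 ± 0.28), Ihh (-1.54 ± 0.18), Gpc4 (-0.70 ± 0.05) and Scube1 (-0.31 ± 0.10). The Scube1 call was lost under 9 of 16 alternatives, among them leaving out any 1 neural clone label or either MD ESC clone (edgeR adjusted p up to 0.263). Ihh, the Indian hedgehog ligand, averaged 4.19 ± 0.327 CPM over neural MD and 12.2 ± 1.02 CPM over neural R42A labels (SD, n = 2 each). In ESC 3 were called higher and 2 lower, with Dhh, the desert hedgehog ligand, again lower (-1.74 ± 0.24). In neural cells over ESC 9 were called higher and 1 lower in MD, and 10 higher in R42A, with Scube1, a secreted protein that helps release the ligand, at 7.28 ± 0.13 and 7.73 ± 0.14.

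Of 5 other reception genes, 0 were called higher and 2 lower in neural MD: Lrp2 (-1.26 ± 0.17) and Cdon (-0.59 ± 0.05), a co-receptor related to Boc. Cdon averaged 73.9 ± 1.21 CPM over neural MD and 111 ± 0.591 CPM over neural R42A labels (SD, n = 2 each), the opposite sign to Boc. In ESC Lrp2 was called higher in MD (0.94 ± 0.18), and no other gene of the 5 was called.

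Of 32 genes of signal transduction downstream of SMO, 11 were called higher and 8 lower in neural MD, and 10 higher and 7 lower in ESC MD. Adcy5, an adenylyl cyclase, had the largest called value in both (1.27 ± 0.11 in neural cells and 1.25 ± 0.17 in ESC). Sufu, the inhibitor that holds GLI proteins in the cytoplasm, was called lower in neural MD (-0.38 ± 0.06) and not in ESC (-0.08 ± 0.08), and Kif7, the ciliary kinesin, at neither stage. The list holds 6 genes of chromosome 11, of which 5 were called higher in neural cells and 6 in ESC, and its 1 gene of chromosome 8, Prkaca, was lower at both. Of 25 cilium genes 14 were called higher and 0 lower in neural MD, led by Mks1 (1.00 ± 0.15) and Kif3a (0.91 ± 0.13), and 6 higher and 4 lower in ESC. Mks1, Kif3a and B9d1, all on chromosome 11, were higher at both stages, but with each chromosome scaled on its own Mks1 and B9d1 no longer passed in ESC. The median of the cilium list was 0.29 in neural cells and 0.02 in ESC, against -0.00200 and -0.03 for all genes tested.

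Genes that Hedgehog signalling patterns in the neural tube were counted as ventral and as dorsal or intermediate. Of 18 ventral genes 4 were called higher and 1 lower in neural MD. Nkx2-1 averaged 1.63 ± 0.0446 CPM in MD and 0.226 ± 0.118 CPM in R42A (log2 2.84 ± 0.40), and Vax1 0.201 ± 0.102 CPM in MD and 0.850 ± 0.111 CPM in R42A (log2 -2.10 ± 0.45). Foxa2, a floor plate factor also made in endoderm, averaged 8.76 ± 0.170 CPM in MD and 13.97 ± 1.22 CPM in R42A and was not called (log2 -0.68 ± 0.32). Nkx2-2 (0.69 ± 0.29), Nkx6-1 (-0.14 ± 0.36) and Olig2 (0.63 ± 0.27), factors of ventral progenitors, were not called. Foxa2, Nkx2-2 and Olig2 passed, with the same signs, in the fit of neural clone sums alone and without R42A ESC clone A04 or A10, while the Vax1 call was lost without neural A04, A10 or 09 (edgeR adjusted p up to 0.0904). Of 24 genes listed as dorsal or intermediate 5 were called higher and 3 lower, led by Neurog2 (2.40 ± 0.17) and Gsx1 (2.14 ± 0.36). All 16 neuron markers were called higher as well, and whether the Neurog2 value reflects neurons or position was not tested. The dorsal factor Pax3 was called higher (0.59 ± 0.14), while Pax7 (0.16 ± 0.08) and Pax6 (0.43 ± 0.35) were not. Without any 1 neural clone label the Pax3 call was lost (edgeR adjusted p up to 0.144), and without neural A04 that of Gsx1 (0.0516), whereas Pax6 and Pax7 passed without R42A ESC clone A04 or A10. Between stages most were called higher in neural cells: 17 of 18 ventral genes in each genotype, and 20 of 24 dorsal or intermediate genes in MD and 21 in R42A.

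Per kilobase of exon the dorsal factors Pax3 and Pax7 stood above the ventral Olig2 and Nkx6-1, but the lists as a whole were not so ordered. In neural MD and then neural R42A, Pax3 stood at 12.1 and 8.03 CPM per kb, and Pax7 at 7.08 and 6.31, against Olig2 at 3.19 and 2.06 and Nkx6-1 at 1.73 and 1.90. Of other ventral genes, Foxa2 stood at 3.69 and 5.89 and Lmx1b at 5.87 and 3.15. Of other dorsal or intermediate genes, Msx1 stood at 1.13 and 2.49 and Gsx1 at 9.18 and 2.08. In ESC 1 of 12 tested ventral genes was called, Lmx1b (1.09 ± 0.27), and 4 of 18 tested dorsal or intermediate genes were called higher and 2 lower. Of 24 other genes known to respond to Hedgehog in some tissue, 4 were called higher and 5 lower in neural MD, led by Osr1 (1.73 ± 0.44) and Tbx2 (1.68 ± 0.26), and 9 higher and 5 lower of 19 tested in ESC, led by Foxc1 (2.36 ± 0.68) and Sfrp1 (-1.88 ± 0.15). Bcl2 was called lower in neural MD (-0.76 ± 0.22) and higher in ESC MD (1.78 ± 0.36). The neural calls of Osr1 (edgeR adjusted p up to 0.134) and Bcl2 (up to 0.184) were lost without any 1 neural clone label, and that of Bcl2 also without R42A ESC clone A04 or A10. The ESC call of Foxc1 was lost under 10 of the 15 alternatives in which it was tested, among them leaving out MD clone 09 or 45 or any R42A clone (up to 0.205).

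**Figure D5:**
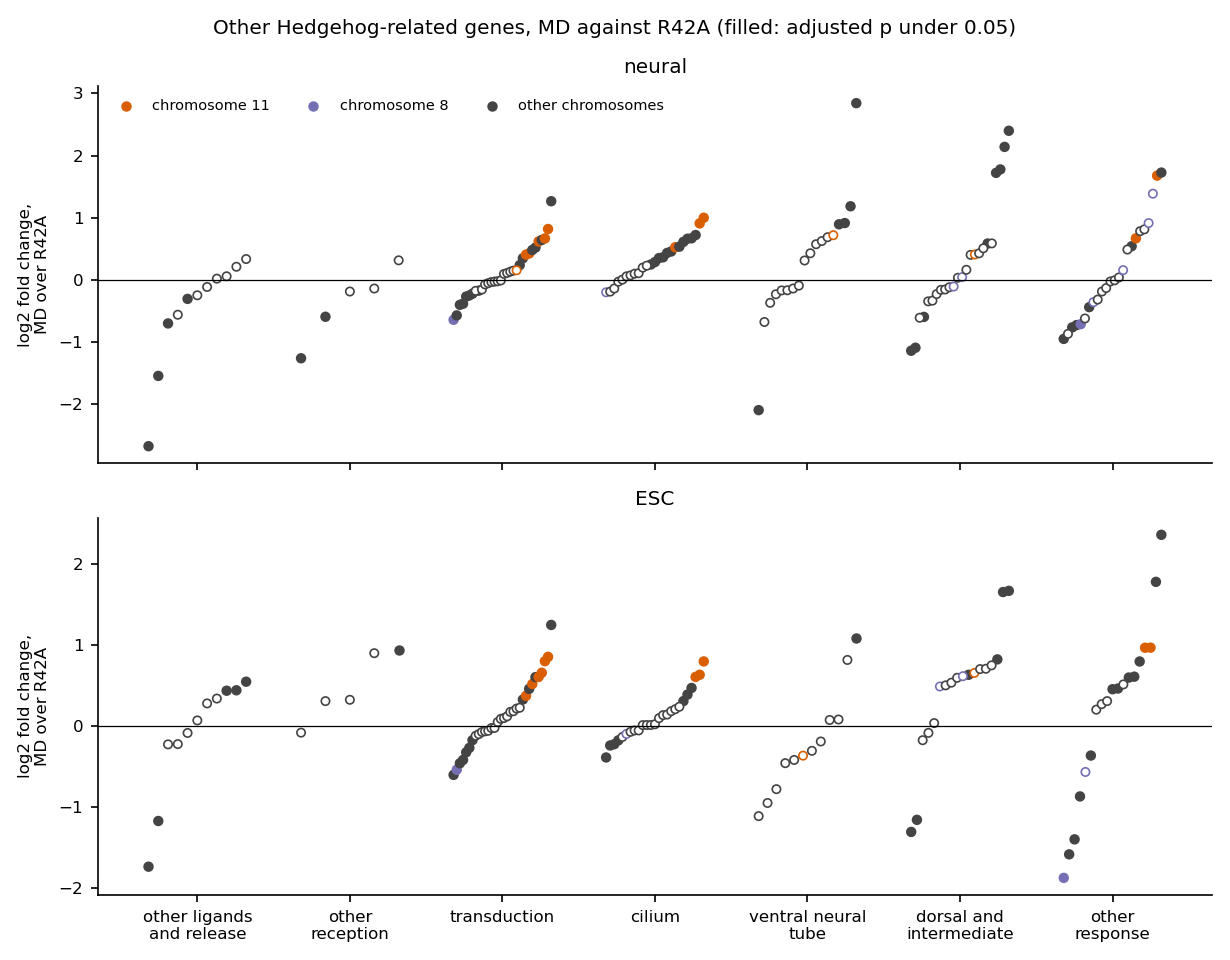
Log2 fold change of MD over R42A (y axis) for genes of 7 Hedgehog-related lists (x axis, ordered within each list by value), in neural cells above and ESC below. Filled points have an adjusted p under 0.05, and colours mark chromosomes 11 and 8. In neural cells 14 of 25 cilium genes are called higher and none lower, and 4 of 11 ligand and release genes are called lower. Of all 23844 genes tested in neural cells 17.4% are called higher and 16.3% lower, or 33.7% in all.

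The genes whose levels followed 4 of the members most closely over the 12 clone sums (8 ESC, 4 neural) were named by Pearson's r of log2 CPM among 23855 genes, as a description. The nearest to Ptch1 were Scmh1 (r = 0.981), Ppp2ca (0.976) and Ube2g1 (0.974), and the nearest to Hhip were Runx1t1 (0.988), Gosr2 (0.977) and Ankrd40 (0.970). Ppp2ca, Ube2g1, Gosr2 and Ankrd40 lie on chromosome 11. The nearest to Shh were Gm20083 (0.996), Nell2 (0.995) and Gm14342 (0.995). The nearest to Gli1 were Gm13552 (0.978) and Gm7774 (0.975), both annotated as processed pseudogenes, and Akip1 (0.975). The 12 points share stage, genotype and library run, so such values describe these libraries only.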

How the data were processed

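RNA was sequenced from 32 libraries of Smarce1-MD and Smarce1-MD(R42A) cells as neural cultures or ESC. The deposited files hold RSEM expected counts per gene made by the authors, and per the submitters' processing notes Trim Galore 0.60, STAR 2.7.1a, RSEM 1.3.0, DESeq2 and the build mm10 were used. The annotation release, strandedness and the order of those steps are not given in the sources used here. Each table lists 55665 entries, of which 92 are ERCC spike-ins with a total of 0 counts, and between 1.46% and 1.70% of the values in a library were not whole (tolerance 1e-06). Positions came from GENCODE M21 for 55480 of the 55573 genes.

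Expected counts were rounded, and libraries of a clone were summed to 12 clone sums. Sums were tested with edgeR 4.0.16 (R 4.3.3), by TMM scaling, a minimum count of 10 in filterByExpr, robust quasi-likelihood F-tests and Benjamini-Hochberg adjustment over all genes tested, with a threshold of 0.05. The 8 ESC sums were fitted with the library series as a covariate. The neural comparisons and those between stages came from 1 fit of 4 groups over the 4 neural sums and the 4 ESC sums of the first series. The SE was derived from the log2 fold change and its F statistic. CPM were taken separately for libraries and for clone sums, each on its TMM-scaled library size, so a clone's CPM is not exactly the mean of its libraries. Values per kb divide CPM by the union exon length. The procedure was tested on simulated data.

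Alternatives used DESeq2 1.42.0, limma 3.58.1 (voom with the clone as a random effect), RLE scaling, each chromosome scaled separately, no filter, single libraries, each series or stage alone, a block and leaving out each clone. P-values measure the spread between these samples, which may be technical. In the fit of 4 groups the spread was estimated over neural and ESC sums together. The median absolute log2 difference between clones was 0.198 (MD) and 0.300 (R42A) in first-series ESC, against 0.101 and 0.103 in neural cells. The 9 members and all gene lists were chosen with earlier results of these data known. The rule named all members, up to 4 called genes of each other list with the largest absolute log2 fold change in a comparison, and fixed genes (Cdon, Sufu, Kif7, Foxa2, Nkx2-2, Nkx6-1, Olig2, Pax3, Pax6 and Pax7 among them). Some genes the rule names are not reported here, though the counts over lists include them.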

Additional observations from a re-analysis of the deposited data

Results flagged for a closer look

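Hhip in ESC R42A clone A04 stood at 7.60 CPM, far from clones A10, A01 and A02, which lay between 4.13 and 4.44 CPM. It was the only one of 18 groups of 4 clones (9 members, both ESC groups) in which 1 clone stood so far from the rest, and chance gives about 1 in 20. Without that clone the log2 fold change of Hhip in ESC was 1.49 and passed in edgeR.

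The difference between MD and R42A itself differed between neural cells and ESC of the first series, by the interaction term in edgeR, for Ptch1 (-0.46, adjusted p = 0.00825) and Boc (1.301, adjusted p = 0.0245). In the 7 other Hedgehog-related lists, up to 4 called genes of each are named, by size. Ligand and release genes were called for 1 of 11 higher and 3 lower in neural cells than in ESC: Scube2 (0.86), a secreted release factor, against Ihh (-1.56), Gpc4, a glypican (-1.26), and the protease gene Adam17 (-0.37). Of 5 reception genes Lrp2, a large endocytic receptor that can bind SHH (-2.49), and Cdon (-0.41) were called. Of 32 transduction genes 4 were higher and 3 lower, led by Ulk3 (0.68), Evc (0.66), Spop (-0.46) and Prkar1a (0.36), and including Sufu (-0.32). All 7 called cilium genes, of 25, were higher, led by Ift172 (0.60), Ift140 (0.59), Fuz (0.57) and Ttbk2 (0.57). Of 18 ventral genes 2 were higher, among them Olig1 (1.36), and of 24 dorsal or intermediate genes 3 were higher and 3 lower, led by Gsx2 (3.04), Dbx2 (1.92) and Msx1 (-1.50). Of 24 other response genes 4 were higher and 6 lower, led by Bcl2 (-2.24), Foxd1 (2.21), Cdk6 (-1.78) and Sfrp1 (1.36). The edgeR adjusted p of each gene named lay under 0.05, where 22.9% of all genes tested were called. The calls of Ptch1, Lrp2, Gpc4, Spop, Ift172, Ift140, Gsx2, Dbx2, Msx1, Bcl2, Cdk6 and Sfrp1 held under all 16 alternatives. Those of the other genes named were each lost under 3 or more, among them leaving out neural A04 or 09, and with the clone label as a block the adjusted p was 0.0587 for Ihh, 0.0547 for Adam17, 0.0681 for Sufu, 0.0754 for Ulk3 and 0.0532 for Fuz (edgeR).

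Over these lists 6 genes were called at both stages with opposite signs, each lower in neural MD and higher in ESC MD: Lrp2, Gpc4, Bcl2, Cdk6, Ccnd1 and Prdm1, the last 2 named after their values were seen. Of all genes tested 33.7% were called in neural cells and 36.5% in ESC. The share of all genes called at both with opposite signs was not counted, so the 6 are not shown to exceed it. Cdk6 stood at -0.95 and 0.80 on the log2 scale in neural cells and ESC, Ccnd1 at -0.44 and 0.60, and Prdm1 at -0.73 and 0.46. Lrp2 averaged 173 ± 4.67 CPM over neural MD labels and 414 ± 12.5 CPM over neural R42A labels (SD, n = 2 each), and 211 ± 74.5 CPM over ESC MD clones and 106 ± 26.8 CPM over ESC R42A clones (SD, n = 4 each). Gpc4 averaged 60.4 ± 2.51 CPM over neural MD labels and 97.8 ± 2.14 CPM over neural R42A labels, and 34.9 ± 4.04 CPM over ESC MD clones and 23.9 ± 2.39 CPM over ESC R42A clones.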

How the results depend on the processing

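Over the members, 726 values under the alternatives kept direction and call, 38 became called, 33 lost the call and 25 changed sign. In ESC, 7862 genes were called in the fit with the series covariate (3680 higher, 4182 lower), 3084 without it (1657 higher, 1427 lower; 2 members), 1769 in the first series alone (1030 higher, 739 lower; 2 members) and 4878 in the second alone. Neural clone sums alone called 13643 of 20285 genes (67.3%) and 8 of 9 members, against 8030 of 23844 (33.7%) and 4. Leaving out 1 clone gave 5745 to 9329 genes in ESC, 3766 to 12256 in neural cells, with the lowest without neural A04 and the highest without ESC A04, and 2309 to 10454 for neural minus ESC, with the lowest without neural A10 and the highest without ESC A04 (1 to 6 members). For neural minus ESC, DESeq2 called 4 members and no filter 1. For second minus first series DESeq2 called 6 genes, no filter 1, single libraries 13 with and without the block, and voom 3. The cause was not tested.

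Signs turned in ESC for Gli1 (-0.0585, second series alone), Gas1 (-0.0289 in voom, -0.0388 in the first series alone, -0.33 to 0.23 without 1 clone) and Cdon (0.0598 in the second series alone, -0.16 to 0.00155 without 1 clone). Smarce1 turned with each chromosome scaled separately, to -0.10 in neural cells and -0.37 in ESC. Without 1 clone, Kif7 ran from -0.0653 to 0.0226 in neural cells and from -0.0371 to 0.14 for neural minus ESC, and Gli2 in MD between stages from -0.0855 to 0.00214. For neural minus ESC, Shh was -0.17 in voom and -0.89 to 1.54 without 1 clone, Gli1 -0.26 to 0.12 and Hhip -0.45 to 0.30. For second minus first series the ranges were -0.25 to 0.0591 for Gli2, -0.12 to 0.54 for Gli3, -0.34 to 0.0144 for Smo, -0.63 to 0.13 for Hhip, -0.0746 to 0.84 for Boc and -0.70 to 0.69 for Gas1.

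Library numbers paired libraries weakly at most: deviations of same-numbered libraries correlated at medians of 0.0460 and 0.162 in the ESC series and 0.0149 in neural cells. Libraries of other numbers had medians of -0.0411, -0.0423 and -0.0149. Same-numbered values ran from -0.37 to 0.34 in the first ESC series, from -0.0315 to 0.33 in the second and from -0.0126 to 0.0611 in neural cells. With the number as a replicate block 10111 genes were called in ESC, against 10110 without it, and 8467 in neural cells, against 8538. The clone label as a block gave 3853 genes for neural minus ESC, against 5472, and changed only the call of Gli2 in R42A among the members. Depth limits Shh in ESC, at 16 counts in MD and 17 in R42A.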
